A study of Mus musculus with 42 samples.

Results

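The 34 genes described here carry glucose from the blood to acetyl-CoA: glucose transporters, the enzymes of glycolysis, lactate dehydrogenase, the mitochondrial pyruvate carrier, and the pyruvate dehydrogenase complex with its kinases and a phosphatase. They were set as a list of gene symbols and not by a rule on measured values, but with earlier results of these data known. All 34 were found, once each, among the 35275 genes of both deposited count tables, and all 34 passed the filter on low counts in every fit. RNA had been sequenced from the cerebellum of C57BL/6 male mice, which were 3 months old at the start. One group ate ad libitum for 3 months (AL). Another fasted 16 h of each day (IF16), with food from 7 am to 3 pm, and another had food and no food on alternating 24 h periods (EOD, every other day). These animals were 6 months old at the end. The same 3 regimens were followed in other groups by 2 months of free access to food (ALR, IF16R and EODR), to an age of 8 months. Each of the 6 groups had 5 libraries, 30 in all. The labels do not say whether the 5 libraries of a group came from 5 mice, so p-values measure the spread between libraries. The hour of day and the time since the last meal at collection are not given in the sources used here.

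Glucose enters the brain through GLUT1 in endothelium and glia and GLUT3 in neurons. In the cytosol glycolysis splits it into pyruvate, which lactate dehydrogenase interconverts with lactate, or which the pyruvate carrier takes into mitochondria for oxidation by the pyruvate dehydrogenase complex. The pyruvate dehydrogenase kinases switch that complex off by phosphorylation and the phosphatase switches it on again. In muscle and other peripheral tissues fasting is known to raise a kinase of this family and so to spare glucose, which is the background to asking how these genes stand in a fasted brain.

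Between 26799825 and 36167435 reads per library were assigned to genes, and the 34 genes took 1.38% to 2.08% of them. Granule cell and Purkinje cell markers were high in every library (summed 5190.2 to 6237 and 4137 to 6517 CPM, counts scaled to library size), while 6 forebrain markers summed to 5.18 to 11.4 CPM. Choroid plexus markers ranged from 30.5 to 4243 CPM between libraries and, in every group except EOD, from 42.6 CPM or less upward, and their part in the results below was not tested. Libraries also differed in how their values depended on gene length. This was measured as a length gradient, the slope of a library's log2 deviation from the table mean on log2 gene length, in log2 CPM per doubling of length. It was -0.16 in AL replicate 4, -0.11 in AL replicate 5 and -0.11 in IF16 replicate 1, and between -0.03 and 0.14 in the other 27 libraries. In whole tissue, fewer cells of a type and less RNA per cell cannot be told apart.

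The most abundant genes were enzymes of the triose steps, though not all enzymes of those steps stood high. Levels are compared between genes as FPKM (deposited values scaled to gene length and library total), as the median of 30 libraries with the range. Gapdh, which oxidises glyceraldehyde 3-phosphate, stood at 1422 FPKM (1274 to 2079), followed by the aldolases Aldoc at 861 FPKM (745 to 1095) and Aldoa at 857 FPKM (765 to 1365). The ranges of the aldolases overlapped nearly in full, so their order is not resolved. Pyruvate kinase, Pkm, stood at 783 FPKM (656 to 1184), and Ldhb at 441 FPKM (391 to 723). Pgk1 and Pgam1, also of the triose steps, were lower, at 173 FPKM (151 to 235) and 106 FPKM (97.4 to 115). Hexokinase 1, which catalyses the first step, was level with Pgam1, with 106 FPKM (79.7 to 133) for Hk1. Phosphofructokinase M, the main control point, stood at 241 FPKM (220.3 to 292). Levels at the entry of pyruvate into mitochondria were widely spread. The E1 beta subunit Pdhb stood at 121 FPKM (112 to 136), against 36.6 FPKM (25.2 to 39.6) for its partner Pdha1, 58.9 FPKM (55.3 to 65.1) for the E3 subunit Dld, 29.9 FPKM (25.7 to 31.7) for the E2 subunit Dlat and 18.6 FPKM (16.7 to 19.9) for the E3-binding protein Pdhx. The carrier subunits were at 26.4 FPKM (19.7 to 37.7) for Mpc2 and 9.07 FPKM (6.65 to 13.8) for Mpc1. Lowest of the 34 were Pdk1 at 4.65 FPKM (3.59 to 5.91) and Hk2 at 3.43 FPKM (2.37 to 4.07).

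**Figure D1:**
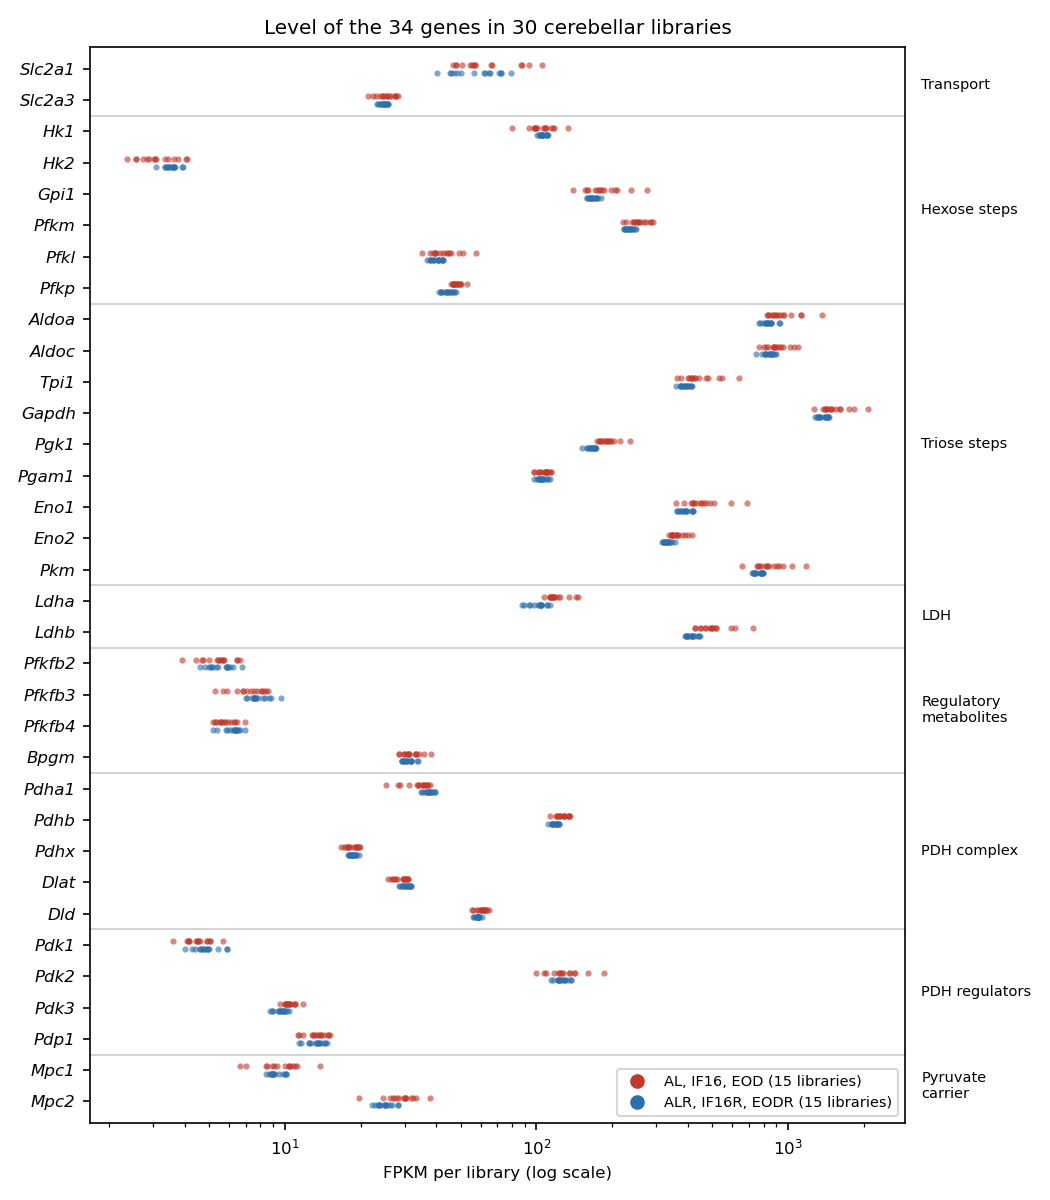
FPKM of each of the 34 genes (log axis), 1 dot per library, grouped by role, with libraries from the end of the regimen in red and after refeeding in blue. Gapdh, Aldoa and Aldoc lie highest, with medians of 1422, 857 and 861 FPKM, and Hk2 and Pdk1 lowest, with medians of 3.43 and 4.65.

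Where several genes encode the same step, or the 2 subunits of the pyruvate carrier, 1 of them held most of the RNA per length in 6 of 9 families. Hk1 made up 96.8% of Hk1 plus Hk2, and Pdk2 89.6% of the 3 pyruvate dehydrogenase kinases, as medians over 30 libraries. Ldhb, whose subunit favours the conversion of lactate to pyruvate, made up 80.5% of the lactate dehydrogenases. Pfkm held 73.7% of the phosphofructokinases, with 13.9% for Pfkp and 12.5% for Pfkl. Mpc2 held 73.7% of the 2 carrier subunits, which are parts of 1 carrier and not alternatives, and Slc2a1 71.3% of the 2 transporters. The aldolases were split evenly, with 50.6% for Aldoa and the rest for Aldoc (the zebrin II antigen of Purkinje cells, also made by astrocytes), and the enolases nearly so, with 54.6% for Eno1 against the neuronal Eno2. Pfkfb2, Pfkfb3 and Pfkfb4, which set the level of the phosphofructokinase activator fructose 2,6-bisphosphate, held 29.1%, 39.1% and 31.9%.

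**Figure D2:**
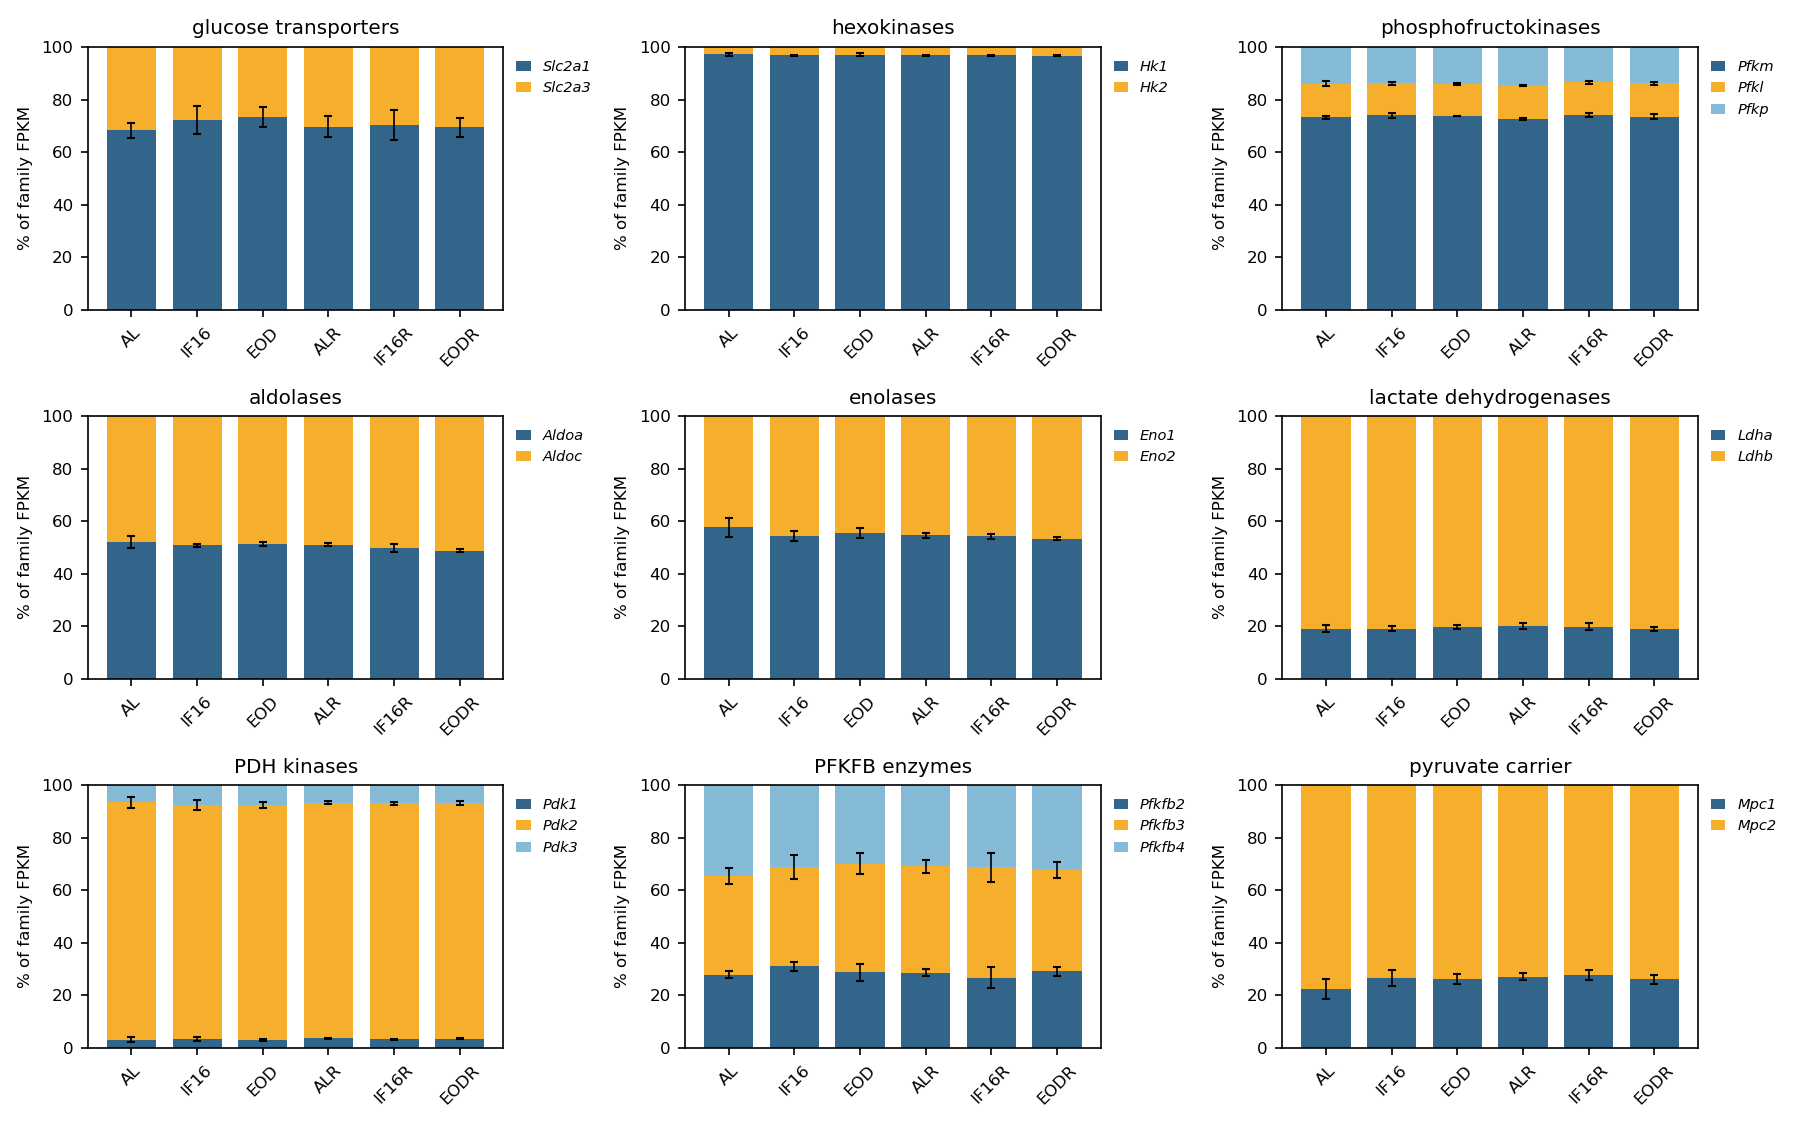
Share of each gene in the summed FPKM of its family (percent, 0 to 100), as the mean of 5 libraries per group. The whisker at the top of a segment is the SD of that segment's share. The leading gene was the same in all 6 groups in 8 of the families, and the aldolases stayed near 50%.

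Slc2a1, Pgk1 and Ldha are textbook targets of hypoxia-inducible factor, which binds ACGTG, and E-box factors such as those of the circadian clock bind CACGTG. The bases upstream of the annotated start were therefore searched for both, on both strands, and are shown for those 3 genes and for Mpc1, the gene with the smallest p-value in the fasting comparisons. Sequences are 250 bases from RefSeq's GRCm38.p6 annotation (mm10), 5′ to 3′ on the gene's strand, ending at the base before the start. Capitals mark ACGTG or its reverse complement CACGT.
Slc2a1, chr4:119108495-119108744, + strand: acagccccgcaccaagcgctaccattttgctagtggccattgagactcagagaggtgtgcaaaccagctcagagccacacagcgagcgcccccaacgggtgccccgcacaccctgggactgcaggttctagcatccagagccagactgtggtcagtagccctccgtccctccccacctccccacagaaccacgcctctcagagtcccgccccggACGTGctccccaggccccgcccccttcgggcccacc
Pgk1, chrX:106186850-106187099, + strand: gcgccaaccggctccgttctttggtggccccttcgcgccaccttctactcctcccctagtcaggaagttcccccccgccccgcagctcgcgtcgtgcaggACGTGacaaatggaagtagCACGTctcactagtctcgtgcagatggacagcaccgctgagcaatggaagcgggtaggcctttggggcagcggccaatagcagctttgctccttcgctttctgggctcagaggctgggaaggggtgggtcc
Ldha, chr7:46845554-46845803, + strand: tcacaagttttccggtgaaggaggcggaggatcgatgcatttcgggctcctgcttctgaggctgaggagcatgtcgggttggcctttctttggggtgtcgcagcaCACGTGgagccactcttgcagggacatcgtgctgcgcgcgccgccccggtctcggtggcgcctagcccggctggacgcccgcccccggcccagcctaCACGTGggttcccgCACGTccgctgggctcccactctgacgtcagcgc
Mpc1, chr17:8283537-8283786, + strand: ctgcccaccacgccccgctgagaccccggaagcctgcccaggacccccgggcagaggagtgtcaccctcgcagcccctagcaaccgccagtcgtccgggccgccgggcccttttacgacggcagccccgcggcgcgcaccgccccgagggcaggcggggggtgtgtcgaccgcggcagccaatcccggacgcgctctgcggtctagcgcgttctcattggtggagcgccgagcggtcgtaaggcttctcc
Slc2a1 held 1 match, Pgk1 held 2, and Ldha held 5, since each of its 2 CACGTG words counts on either strand. These letters were not in the Mpc1 window. Nor were they in those of Aldoa, Eno1, Gapdh, Tpi1, Pfkl, Pdk1 and Pfkfb4, so the 3 genes shown do not stand for the pathway. The start used for Ldha lies 4329 bases, and that for Mpc1 883 bases, from the gene start in the deposited table. RefSeq's annotation held 2 starts for each, of which the nearer was taken. For Pfkfb2, whose window is not shown, the nearest of 3 starts lies 13205 bases away. Of the 32 genes of the pathway with an entry (all but Slc2a3 and Pdp1), 10 (31.2%) held ACGTG and 4 (12.5%) CACGTG, against 16.6% and 6.02% of 32851 promoters. The pathway's windows were also richer in G and C, with a median of 61.0% against 52.4%. A match is a description of these letters and not of binding.

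The daily and the alternate-day fast were each compared with the ad libitum group. No gene of the 34 passed an adjusted p of 0.05 (edgeR's quasi-likelihood test with Benjamini-Hochberg adjustment over 16577 genes) in either comparison, where 0.0483% of all genes tested passed for IF16 against AL and 0.0664% for EOD against AL. At an unadjusted p under 0.05 there were 3 genes for IF16 (Mpc1, Slc2a1 and Pfkfb2) and 4 for EOD (Slc2a1, Slc2a3, Dlat and Pdha1), all with the higher mean in the fasted group. Of all genes 9.92% and 14.4% were past that p in either direction, and 4.35% and 7.02% with the higher mean in the fasted group. DESeq2 called Mpc1 in IF16 (adjusted p = 0.0481) and none in EOD. The shares of all genes above are those of edgeR, and the share that DESeq2 called is not reported here. The 2 comparisons share the AL libraries, so genes that stand out in both are not independent observations. Most differences were small, from -0.26 to 0.46 (log2) for IF16 and from -0.21 to 0.55 for EOD, with medians of -0.03 and -0.05 beside -0.01 and -0.02 over all genes tested.

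Slc2a1, the GLUT1 transporter of the blood-brain barrier, had the largest difference with both fasts. Its AL libraries measured 130.0, 124, 120.5, 146 and 147 CPM (values are in the order of replicates 1 to 5 throughout). The IF16 libraries measured 125, 148, 142, 226 and 277 CPM. The EOD libraries measured 170.5, 148, 174, 236 and 247 CPM. All 5 EOD values lay above the highest AL value, whereas IF16 overlapped AL and was spread widely by its high replicates 4 and 5. The log2 fold change was 0.55 ± 0.19 (SE) for EOD, or 1.46-fold with a 95% interval of 1.10 to 1.94, and adjusted p = 0.313 by edgeR. It was 0.46 ± 0.19 for IF16, or 1.37-fold with a 95% interval of 1.03 to 1.82, and adjusted p = 0.471 by edgeR. Without IF16 replicate 5 the IF16 value was 0.26. Slc2a1 is abundant in endothelium and is also made by glia. The summed level of 5 endothelial markers was 268 to 308 CPM in AL, 241 to 289 in IF16 and 232 to 289 in EOD. Within AL this sum was highest in replicates 4 and 5, as was Slc2a1. Within IF16 it was highest in replicate 1 (289 CPM, against 251 in replicate 5), and within EOD it was lowest in replicate 5, unlike Slc2a1. The estimate was below 0 for 4 of these 5 endothelial genes for IF16 and for 3 for EOD. At an unadjusted edgeR p under 0.05, 2 were lower for IF16 and 1 for EOD, with 0 higher in either. Of all genes tested, 9.92% and 14.4% were past that p in either direction. The summed level of 5 markers of astrocytes and Bergmann glia was 1698 to 2009.6 CPM in AL, 1869 to 2183 in IF16 and 1929 to 2479.6 in EOD. Within IF16 this sum was highest in replicates 4 and 5, as was Slc2a1. Within AL it was lowest in replicate 4, unlike Slc2a1, and within EOD it was highest in replicate 4. The estimate was above 0 for 5 of these 5 glial genes for IF16 and for 4 for EOD, with 0 at an unadjusted edgeR p under 0.05 in either. The part of either cell type in the Slc2a1 values was not tested.

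Slc2a3, the neuronal GLUT3, measured 153, 152, 152, 137 and 145 CPM in AL. It measured 159, 167, 159, 182 and 164 CPM in EOD and 139, 149, 166, 171 and 175 CPM in IF16. EOD again lay wholly above AL, by a narrower margin, and IF16 overlapped it. The log2 fold change was 0.17 ± 0.07 for EOD (edgeR adjusted p = 0.325) and 0.11 ± 0.07 for IF16 (edgeR adjusted p = 0.568).

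**Figure D3:**
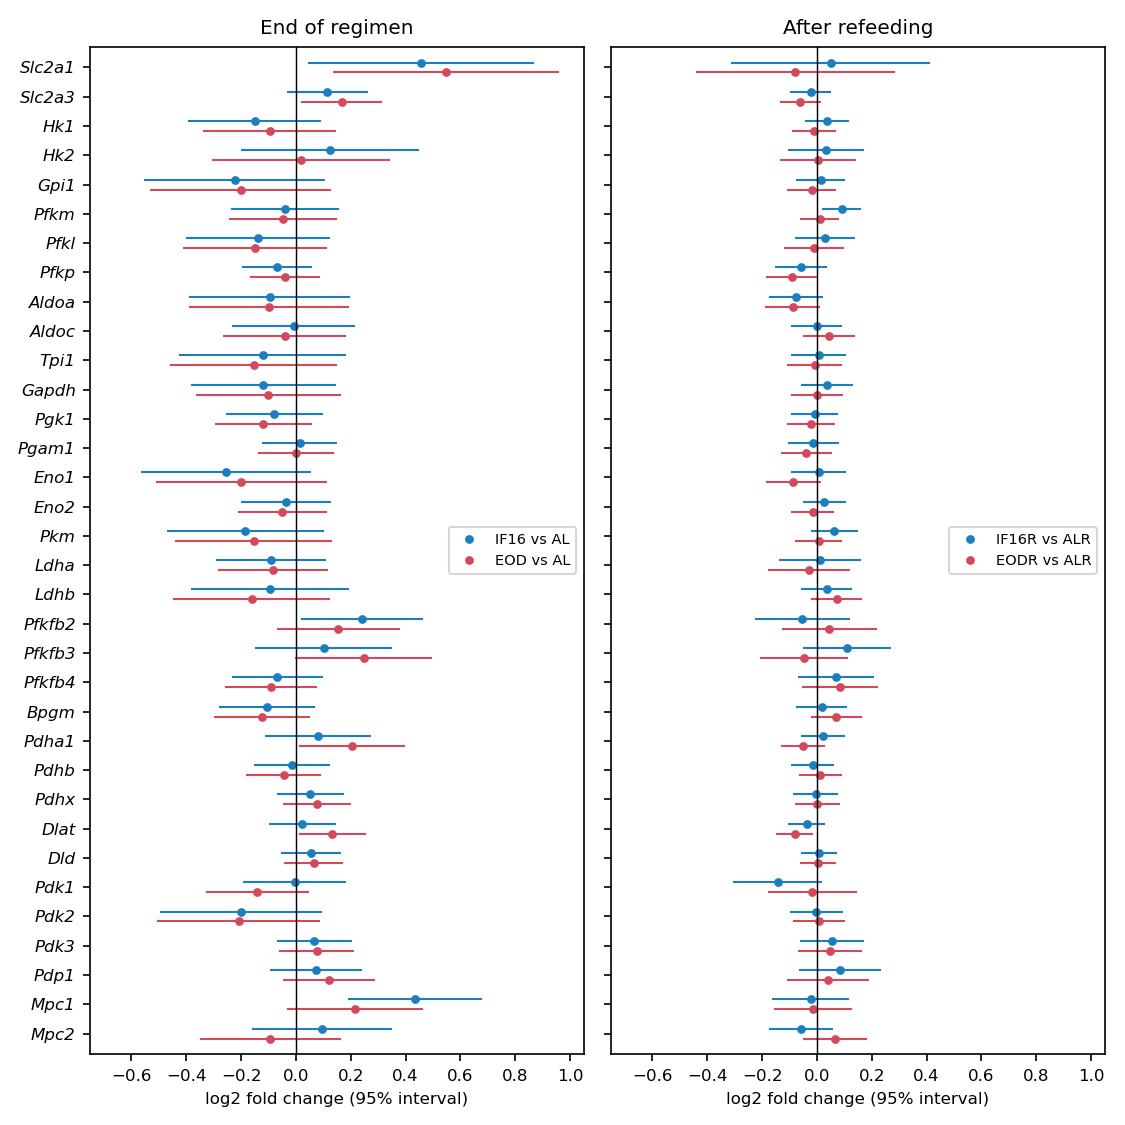
Log2 fold change of each of the 34 genes against the ad libitum group of the same table, with its 95% interval, at the end of the regimen (left) and after refeeding (right). Slc2a1 lies farthest to the right on the left panel, at 0.46 and 0.55, and the intervals on the right panel are narrower and centred near 0.

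The 6 genes of the hexose steps and the 9 of the triose steps had no unadjusted p under 0.05 with either fast. The estimate was below 0 for 5 of the 6 and 8 of the 9 in both comparisons, with medians of -0.10 and -0.10 (log2) for IF16 and -0.07 and -0.10 for EOD. Of all genes tested, 48.7% had an estimate above 0 for IF16 and 46.7% for EOD. Hk1 measured 395, 452, 459, 585 and 504 CPM in AL, 465, 505, 331, 422 and 437 in IF16 and 424, 422, 419.8, 480.0 and 495 in EOD. Pfkm measured 644, 729, 723, 862 and 824 CPM in AL, 823, 789, 616, 714 and 737 in IF16 and 685, 709, 703, 781 and 785 in EOD. Pkm, the last step, measured 1800.1, 1998, 2025, 2954 and 2549 CPM in AL, 2317, 2192, 1549, 1893 and 2021 in IF16 and 1852, 1855, 1970.4, 2230.1 and 2277 in EOD. In all 3 genes the AL group held both low and high values, its replicate 4 was the highest of the 15 libraries, and the groups overlapped. The log2 fold changes for IF16 and EOD were -0.15 ± 0.11 and -0.10 ± 0.11 for Hk1, -0.04 ± 0.09 and -0.05 ± 0.09 for Pfkm, and -0.18 ± 0.13 and -0.15 ± 0.13 for Pkm. Eno1 had the lowest estimate of the 34 for IF16, -0.26 ± 0.15 (edgeR adjusted p = 0.561).

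The signs of these small estimates rested on a few libraries. AL replicate 4 held the highest of the 15 values for 19 of the 34 genes, against 21.1% of all genes tested, and the median of 17 glycolytic enzymes (hexokinase to lactate dehydrogenase) lay 0.38 (log2) above the table mean there. With AL replicates 4 and 5 and IF16 replicate 1 left out, which were the 3 libraries of lowest length gradient and were chosen after seeing the data, 30 of 34 estimates for EOD were above 0 in place of 13, and 22 in place of 14 for IF16. With the length gradient as a covariate the numbers were 30 and 20. Over all genes tested, 46.7% of estimates for EOD and 48.7% for IF16 were above 0 in the main fits. That share in the refits is not reported here, so these counts do not set the 34 genes apart from other genes. No gene of the 34 passed the adjusted threshold without those libraries or with the covariate.

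Lactate dehydrogenase genes did not separate the fasted groups from AL. Ldha measured 186, 201, 207, 264 and 258 CPM in AL, 237, 207, 198, 206 and 202 in IF16 and 199, 210.1, 215, 208 and 223 in EOD. Ldhb measured 549.8, 578, 652, 967 and 785 CPM in AL, 802, 638, 569.7, 649 and 651 in IF16 and 609.9, 611, 676, 580.0 and 685 in EOD. Both ranged widest in AL, between replicates 1 and 4. The log2 fold changes were -0.09 ± 0.09 and -0.08 ± 0.09 for Ldha and -0.09 ± 0.13 and -0.16 ± 0.13 for Ldhb, for IF16 and EOD in turn. The lowest of their 4 edgeR adjusted p-values was 0.510.

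Of the genes for regulatory metabolites, Pfkfb2 had an unadjusted edgeR p of 0.0324 for IF16 (adjusted p = 0.475). It measured 23.9, 24.2, 24.7, 18.1 and 20.2 CPM in AL and 22.5, 29.1, 28.9, 24.9 and 25.9 in IF16, and the groups overlapped. Its log2 fold change was 0.24 ± 0.10 for IF16 and 0.16 ± 0.10 for EOD. Pfkfb3 measured 41.9, 34.5, 32.5, 29.6 and 30.1 CPM in AL, 26.7, 34.6, 39.97, 38.2 and 41.4 in IF16 and 35.5, 42.2, 37.1, 45.3 and 39.9 in EOD, all overlapping, with AL replicate 1 above the other AL libraries. It had 0.25 ± 0.12 for EOD (edgeR adjusted p = 0.347), and Pfkfb4 and Bpgm, which makes 2,3-bisphosphoglycerate, had estimates between -0.12 and -0.07 in both comparisons.

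The pyruvate carrier gave the smallest p-value of the 34 genes. Mpc1, a subunit of the carrier in the inner mitochondrial membrane, measured 8.54, 8.52, 8.02, 6.55 and 8.28 CPM in AL. It measured 10.8, 10.5, 12.8, 9.59 and 10.2 CPM in IF16, where every library was above every AL library, and 9.93, 10.4, 9.97, 7.03 and 9.11 CPM in EOD, which overlapped AL through its replicate 4. Mpc1 was the one gene of the 34 whose IF16 and AL groups did not overlap, against 1.51% of all genes tested (0.802% higher in IF16). The log2 fold change was 0.43 ± 0.11 for IF16, or 1.35-fold with a 95% interval of 1.14 to 1.60, and adjusted p = 0.266 by edgeR. It was 0.22 ± 0.11 for EOD (edgeR adjusted p = 0.371). Mpc1 is a low count gene, with 217 to 440.0 reads in these libraries, and the pseudogene Mpc1-ps on chromosome 12 had 239 to 463 over the 30. Reads could be split between them. The copy, looked up after these values were seen, had a log2 fold change of 0.03 ± 0.11 for IF16 (edgeR adjusted p = 0.932). The sum of both, which contains Mpc1 itself, measured 19.3 ± 0.777 CPM (SD, n = 5) in AL and 22.3 ± 1.18 in IF16, and the groups overlapped (highest AL library 20.53, lowest IF16 library 20.47). Mpc2, the other subunit, measured 88.0 ± 11.8 CPM (SD, n = 5) in AL, 94.0 ± 11.4 in IF16 and 82.6 ± 13.5 in EOD, with log2 fold changes of 0.10 ± 0.12 and -0.09 ± 0.12.

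Among the 5 subunits of the pyruvate dehydrogenase complex 4 estimates were above 0 with each fast, with medians of 0.05 for IF16 and 0.08 for EOD. Dlat, the acetyl transferase core, measured 119, 111, 118, 106 and 108 CPM in AL, 109, 109, 117, 112 and 125 in IF16 and 121, 125, 119, 128 and 123 in EOD. The EOD values lay just above the highest AL value, and IF16 spanned both. Dlat, Slc2a1 and Slc2a3 were the genes of the 34 whose EOD and AL groups did not overlap, 3 of 34 against 2.92% of all genes tested (1.34% higher in EOD). For Dlat the log2 fold change was 0.13 ± 0.06 for EOD (edgeR adjusted p = 0.327) and 0.02 ± 0.06 for IF16. Pdha1, the subunit that the kinases phosphorylate, measured 103, 95.3, 96.4, 73.6 and 81.0 CPM in AL, 81.4, 89.0, 102, 99.5 and 103 in IF16 and 102, 106, 101, 112 and 96.8 in EOD. AL replicates 4 and 5 held the lowest values, the reverse of the glycolytic enzymes, and the groups overlapped. Its log2 fold change was 0.21 ± 0.09 for EOD (edgeR adjusted p = 0.332) and 0.08 ± 0.09 for IF16. For EOD the log2 value was 0.08 for Dlat and 0.08 for Slc2a3 with the length gradient as a covariate.

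**Figure D4:**
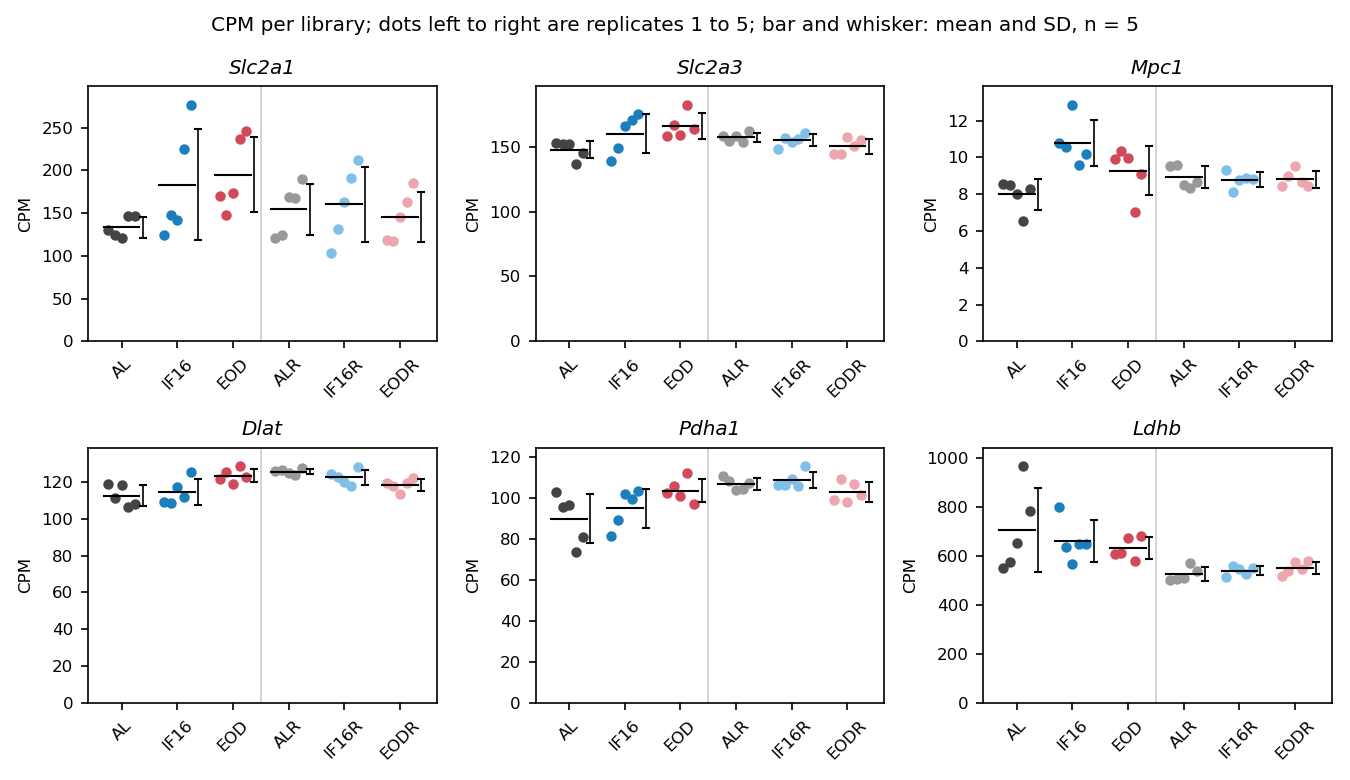
CPM (axis from 0) of 6 genes in each of the 30 libraries, by group, with the mean and SD of 5. Slc2a1 is widely spread in IF16 and the refed groups, IF16 stands wholly above AL for Mpc1, EOD stands wholly above AL for Slc2a1, Slc2a3 and Dlat, and Ldhb reaches 967 CPM in AL replicate 4.

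None of the 4 regulators of the complex had an unadjusted p under 0.05. Pdk2, the main kinase gene here, measured 323 ± 73.8 CPM (SD, n = 5) in AL, 281 ± 38.5 in IF16 and 279 ± 30.4 in EOD. Its log2 fold changes were -0.20 ± 0.14 and -0.21 ± 0.14. Those of Pdk1, Pdk3 and the phosphatase Pdp1 ran from -0.14 to 0.12. Pdk4, the fasting-induced kinase of peripheral tissues, is not one of the 34. It measured 8.19, 8.94, 8.74, 5.98 and 7.96 CPM in AL, 7.62, 8.20, 11.7, 17.5 and 18.2 in IF16, and 12.5, 13.2, 12.2, 11.4 and 15.5 in EOD. EOD lay wholly above AL, while IF16 replicates 1 and 2 were within the AL range. For Pdk4 the log2 fold change was 0.66 ± 0.21 for IF16 (edgeR adjusted p = 0.347) and 0.71 ± 0.21 for EOD (edgeR adjusted p = 0.251).

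The alternate-day and daily fasts were then compared with each other. No gene of the 34 passed the adjusted threshold, none was at an unadjusted p under 0.05 (3.62% of all genes tested) and none had groups that did not overlap (0.676%), while 0.0% of all genes passed with adjustment in edgeR and none of the 34 did in DESeq2. The smallest edgeR p-values were those of Dlat (log2 fold change 0.11 ± 0.06), Mpc1 (-0.22 ± 0.11) and Mpc2 (-0.19 ± 0.12), all with an adjusted p of 0.977. Mpc2 measured 114, 91.1, 88.9, 84.7 and 91.2 CPM in IF16 and 90.3, 79.3, 97.9, 62.1 and 83.3 in EOD, which overlapped, with EOD replicate 4 lowest.

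After 2 months of refeeding the differences were smaller still and their errors narrower. No gene of the 34 passed an adjusted p of 0.05 by edgeR for IF16R against ALR (0.17% of 16444 genes tested did), EODR against ALR (0.0426%) or EODR against IF16R (0.0182%), nor by DESeq2. At an unadjusted p under 0.05 there were 1, 2 and 2 genes, against 9.58%, 8.5% and 9.75% of all genes. The first was Pfkm, higher in IF16R (as were 4.76% of all genes), and the next were Dlat and Pfkp, lower in EODR (3.99%). Between EODR and IF16R they were Mpc2, higher (4.99%), and Pfkm, lower (4.76%). The 3 comparisons share libraries pairwise. Slc2a1 measured 120.5, 125, 169, 168 and 189.5 CPM in the ALR libraries, 104, 131, 164, 191 and 212 in IF16R and 119, 117, 146, 163 and 185 in EODR. The 3 groups covered nearly the same range, and the log2 fold changes were 0.05 ± 0.17 for IF16R and -0.08 ± 0.17 for EODR. Mpc1 measured 9.53, 9.58, 8.50, 8.31 and 8.64 CPM in ALR, 9.31, 8.12, 8.78, 8.90 and 8.84 in IF16R and 8.43, 8.97, 9.52, 8.64 and 8.44 in EODR, with log2 fold changes of -0.02 ± 0.07 and -0.01 ± 0.07.

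Pfkm had the smallest p-value for IF16R against ALR. It measured 631, 635, 646, 696 and 678 CPM in ALR, 682, 715, 691, 721 and 694 in IF16R and 661, 659, 669, 655 and 657 in EODR. IF16R lay above all but 1 ALR library and above every EODR library. Pfkm was the one gene of the 34 with IF16R and EODR groups that did not overlap (1.29% of all genes, 0.596% lower in EODR), and none was so for IF16R against ALR (2.18%). The log2 fold change was 0.09 ± 0.03 for IF16R against ALR (edgeR adjusted p = 0.357) and -0.08 ± 0.03 for EODR against IF16R (edgeR adjusted p = 0.416). Dlat measured 126, 126, 125, 124 and 127 CPM in the ALR libraries and 119, 118, 113, 119 and 122 in EODR, groups that did not overlap (1 of 34 against 1.95% of all genes, 1.01% lower in EODR). Its log2 fold change was -0.08 ± 0.03 (edgeR adjusted p = 0.450), on the other side of 0 from the value at the end of the regimen. Pfkp, a phosphofructokinase of brain and platelets, measured 211, 202, 218, 216 and 225 CPM in the ALR libraries and 191, 191, 205, 203 and 212 in EODR, which overlapped, with -0.09 ± 0.04 for EODR. Aldoa measured 1268, 1269.8, 1296, 1443 and 1434 CPM in ALR, 1185, 1326, 1270.4, 1291 and 1304 in IF16R and 1178, 1213, 1315, 1268 and 1325 in EODR. Pdk1 measured 29.97, 25.1, 25.1, 24.6 and 25.8 CPM in the ALR libraries and 27.6, 24.0, 23.0, 21.1 and 22.6 in IF16R, where ALR replicate 1 was the highest, and had -0.14 ± 0.08 for IF16R. Aldoa had -0.08 ± 0.05 and -0.09 ± 0.05 for IF16R and EODR. Mpc2 measured 74.1, 77.9, 75.8, 76.9 and 72.2 CPM in ALR, 66.1, 75.9, 72.1, 77.8 and 70.5 in IF16R and 72.2, 84.1, 80.2, 71.7 and 85.7 in EODR. Pfkfb3 measured 38.1, 39.2, 38.3, 39.1 and 42.7 CPM in ALR, 35.1, 38.2, 45.4, 44.5 and 49.98 in IF16R and 35.6, 36.9, 38.2, 41.8 and 38.2 in EODR, with IF16R spread widest. For both genes IF16R and EODR overlapped, and between EODR and IF16R Mpc2 had 0.13 ± 0.05 and Pfkfb3 -0.15 ± 0.08. None of these passed the adjusted threshold by edgeR.

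The other genes given by library also overlapped between the refed groups. Slc2a3 measured 158, 154, 158, 154 and 162 CPM in ALR, 149, 157, 154, 156 and 161 in IF16R and 145, 145, 157, 150.3 and 155 in EODR. Pdha1 measured 111, 108, 104, 104 and 107 CPM in ALR, 106, 106, 109, 106 and 115 in IF16R and 99.1, 109, 98.1, 107 and 101 in EODR. Pfkfb2 measured 26.03, 25.9, 26.4, 23.1 and 23.3 CPM in ALR, 30.1, 23.9, 22.97, 22.1 and 21.2 in IF16R and 26.6, 26.9, 27.7, 22.6 and 24.4 in EODR. For Pfkfb2 replicate 1 of IF16R was the highest of the 15. Hk1 measured 425, 438, 449, 473 and 471 CPM in ALR, 449, 448, 462, 480.2 and 481 in IF16R and 466, 435, 439.9, 439.8 and 453 in EODR. Pkm measured 1745, 1730.0, 1788, 1935 and 1913 CPM in ALR, 1756, 1943, 1921, 1952 and 1968 in IF16R and 1790.0, 1749, 1862, 1826 and 1907 in EODR. No library of these 2 enzymes stood as far above the rest as AL replicate 4 had at the end of the regimen. Ldha measured 156, 184, 182, 198 and 189 CPM in IF16R and 153, 164, 181, 185 and 195 in EODR, and Ldhb measured 515, 559, 548, 526 and 554 in IF16R and 518, 540.2, 576, 546 and 579.9 in EODR.

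Pdk4 measured 6.91, 6.76, 7.39, 7.07 and 7.24 CPM in ALR, 6.71, 7.86, 9.54, 10.2 and 11.7 in IF16R, and 6.56, 8.03, 9.87, 9.77 and 11.0 in EODR. In both refed groups 4 of 5 libraries were above the ALR range. The log2 fold changes were 0.37 ± 0.14 for IF16R (edgeR adjusted p = 0.383) and 0.36 ± 0.14 for EODR (edgeR adjusted p = 0.458).

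Whether the difference from the controls was another after refeeding than at the end of the regimen was tested as an interaction over all 30 libraries. No gene of the 34 passed an adjusted p of 0.05 by edgeR for IF16 (0.0474% of 16877 genes did) or EOD (0.0119%), nor by DESeq2. At an unadjusted p under 0.05 there were 2 genes for IF16 (Mpc1 and Pfkfb2), against 7.21% of all genes, both with a lower difference after refeeding (3.28%). There were 5 for EOD, against 10.3%, of which 1 was higher (5.48%) and 4 lower (4.86%). For IF16 the refed difference minus the earlier one was -0.45 ± 0.13 (log2) for Mpc1 (edgeR adjusted p = 0.375). For EOD the values were -0.22 ± 0.06 for Dlat (edgeR adjusted p = 0.294), -0.23 ± 0.07 for Slc2a3 (0.359), -0.26 ± 0.10 for Pdha1 (0.462) and -0.63 ± 0.28 for Slc2a1 (0.467).

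The precision of these comparisons bounds what could have gone unseen. In all 6 comparisons within a table, the 95% interval of every one of the 34 genes lay within a 2-fold change in either direction. It lay within 1.5-fold for 32 genes (IF16 against AL), 33 (EOD against AL) and 34 (the other 4). It lay within 1.25-fold for 18, 16 and 25 genes in the comparisons at the end of the regimen and for 33 in each of the 3 after refeeding. The genes outside 1.5-fold were Slc2a1 and, for IF16, Mpc1. The median coefficient of variation of the 34 genes within a group was 13.0% in AL, 10.7% in IF16 and 6.52% in EOD, and 4.89%, 5.35% and 4.53% in ALR, IF16R and EODR. Slc2a1 had the highest of the 34 in IF16 (35.5%) and in all 3 refed groups (19.6% to 27.3%).

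Ratios of paired isoforms were tested within each library, where scaling to library size cancels. The length gradient does not cancel where the paired genes differ in length, as Slc2a1 (2607 bases) and Slc2a3 (6253 bases) do. None of 48 tests (8 pairs in 6 comparisons) passed after Benjamini-Hochberg adjustment, the lowest adjusted p being 0.381. A lone ratio with fully separated groups could not pass over 48 tests, because the smallest p that 5 against 5 allows is 0.00794. That value was reached by Aldoc over Aldoa for EODR against ALR (exact two-sided permutation test), with a mean log2 count ratio of 0.91 ± 0.04 (SD, n = 5) in EODR and 0.78 ± 0.04 in ALR. The groups did not overlap. Pfkp over Pfkm was -1.77 ± 0.09 in IF16R (exact permutation p = 0.0238) and -1.72 ± 0.07 in EODR (exact permutation p = 0.0476), against -1.62 ± 0.05 in ALR. Slc2a1 over Slc2a3 was 0.21 ± 0.29 in EOD and -0.15 ± 0.19 in AL (exact permutation p = 0.0397).

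The ad libitum groups of 6 and 8 months differed in more genes than any fasted group did from its control. Age, count table and any sequencing occasion cannot be told apart in this comparison, and markers of several cell types moved with it. The 5 oligodendrocyte markers all had the lower mean in ALR and 3 were called (edgeR), with summed levels of 5228 to 6069.7 CPM in AL and 4557 to 5059 in ALR. Of 5 Purkinje cell markers 2 were called higher in ALR, with sums of 4137 to 5419.9 CPM in AL and 5824 to 6013 in ALR. Another 1 of the 5 was lower at an unadjusted edgeR p under 0.05. Of 6 granule cell markers 2 were called higher and 1 had the lower mean, with sums of 5190.2 to 6009 and 5882 to 6018 CPM. Of 5 endothelial markers 3 were higher, each at an unadjusted edgeR p under 0.05, and 2 had the lower mean. Cldn5, 1 of these 2, was called lower (log2 fold change -0.73 ± 0.18, edgeR adjusted p = 0.00834). All 5 red blood cell markers had the higher mean in ALR and 3 were called, with a median log2 fold change of 1.18 and sums of 11.0 to 58.1 and 8.70 to 114 CPM. All 8 choroid plexus markers had the lower mean, with a median of -1.69, and 0 were called. The part of these cells in the values below was not tested. Of the 34 genes 11 passed an adjusted p of 0.05 (edgeR, joint fit), 32.4% against 23.9% of all 16877 genes tested, with 9 lower (12.4% of all genes) and 2 higher (11.5%) in ALR. At an unadjusted p under 0.05 there were 19 (40.0% of all genes), 16 lower (20.9%) and 3 higher (19.1%). The 9 were Pfkm and, from the triose steps on, Tpi1, Gapdh, Pgk1, Eno1, Eno2, Pkm, Ldha and Ldhb. The 2 were the pyruvate dehydrogenase subunits Pdha1 and Dlat. Groups did not overlap for 4 genes (Dlat, Slc2a3 and Pdha1 higher and Pgk1 lower), against 9.72% of all genes (4.97% higher and 4.75% lower).

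Ldhb, at 549.8, 578, 652, 967 and 785 CPM in AL, measured 502, 506, 510.3, 570.3 and 541 in ALR. AL replicates 2 to 5 were above every ALR library and replicate 1 was within their range. The log2 fold change was -0.43 ± 0.10 (edgeR adjusted p = 0.00804). Pgk1, the first ATP-yielding step, measured 322, 325, 360.4, 440.3 and 397 CPM in AL and 309, 297, 290.2, 308 and 315 in ALR, with no overlap, and had -0.28 ± 0.06 (edgeR adjusted p = 0.00605). Gapdh measured 1918, 1983, 2027, 3028 and 2634 CPM in AL and 1836, 1824, 1893, 2039.9 and 2073 in ALR, and Tpi1 measured 596, 645, 679.9, 1051 and 889 in AL and 591, 599, 608, 668 and 668 in ALR. In both, AL replicates 4 and 5 were far above the rest, and the other AL libraries overlapped the ALR range or, for Tpi1 in replicate 3, lay just above it. Eno1 measured 771, 911, 907, 1430.4 and 1219 CPM in AL and 794, 758, 763, 849 and 855 in ALR, with replicate 1 of AL alone inside the ALR range. Eno2, the neuronal enolase, measured 953, 964, 963, 1189 and 1132 CPM in AL and 879, 886, 928, 962 and 956 in ALR, and again AL replicate 1 alone lay inside the ALR range. Ldha measured 179, 163, 172, 183 and 202 CPM in ALR, and Pkm measured 1745, 1730.0, 1788, 1935 and 1913. Log2 fold changes of the other called glycolytic genes ran from -0.38 (Eno1) to -0.17 (Eno2). Pdha1 measured 111, 108, 104, 104 and 107 CPM in ALR, above every AL library, with 0.25 ± 0.07 (edgeR adjusted p = 0.0163), and Dlat had 0.16 ± 0.04 (edgeR adjusted p = 0.0135).

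Most of these calls depended on AL replicates 4 and 5. Without replicate 4 of AL 2 of the 34 genes were called (Pgk1 and Ldhb), beside 4.88% of all genes tested in that fit, and without replicate 5 the same 2, beside 7.34%. Without AL replicate 1, where none of 17 glycolytic enzymes was above the table mean, the count was 19, beside 36.3%. Without ALR replicate 1, 2 or 3 it was 6 each time, beside 18.8%, 12.4% and 13.5%. It was 0 without AL replicates 4 and 5 and IF16 replicate 1, beside 0.881% of all genes, and 0 with the length gradient as a covariate, beside 1.32%. Calls over all genes were thus lost and gained under the same settings. The 17 glycolytic enzymes had a median log2 deviation of 0.38 in AL replicate 4, 0.25 in AL replicate 5 and 0.16 in IF16 replicate 1, the 3 libraries of lowest gradient, while the other 17 genes had -0.12, -0.11 and -0.05. In AL replicate 1, IF16 replicate 3 and EOD replicate 1 of the same table none of the 17 enzymes was above the mean. EOD replicate 4, with the highest gradient of 0.14, had 0.02.

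**Figure D5:**
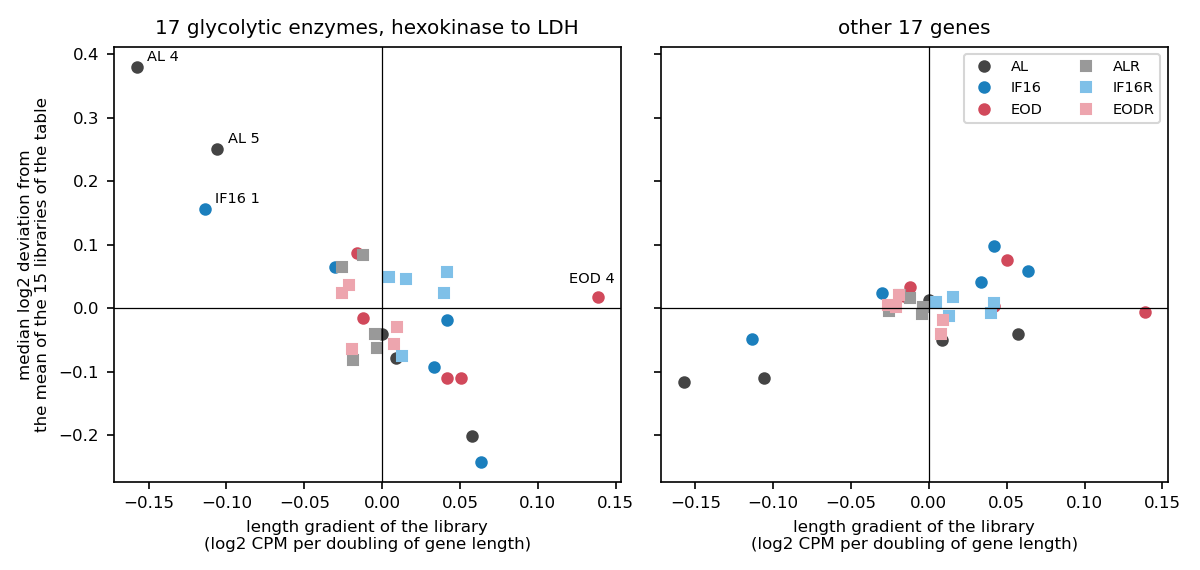
Median log2 deviation of 17 glycolytic enzymes (left) and of the other 17 genes (right) from the mean of the 15 libraries of their table, against the length gradient of each library, 1 point per library. AL replicates 4 and 5 and IF16 replicate 1 lie at the upper left for the enzymes and below 0 for the other genes.

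Genes that surround the pathway were tested in the same fits. Of other isoforms and regulators 19 of 25 were tested, of the pentose phosphate pathway 8 of 8, of glycogen metabolism 19 of 19, of gluconeogenesis 4 of 7, of the cytosolic redox shuttles 9 of 9, of the citric acid cycle 16 of 16, and of other targets of hypoxia-inducible factor 16 of 16. None passed an adjusted p of 0.05 by edgeR in the 6 comparisons within a table or the interactions. Over these lists together, 91 genes, an unadjusted p under 0.05 was reached by 10 for IF16 (11.0%, against 9.92% of all genes tested), 14 for EOD (15.4% against 14.4%) and 3 for EOD against IF16 (3.3% against 3.62%). It was reached by 11 for IF16R (12.1% against 9.58%), 13 for EODR (14.3% against 8.5%) and 7 for EODR against IF16R (7.69% against 9.75%), and in the interactions by 8 for IF16 (8.79% against 7.21%) and 5 for EOD (5.49% against 10.3%). For ALR against AL 23 of the 91 passed with adjustment (25.3% against 23.9%) and 39 without (42.9% against 40.0%). Genes of these lists that DESeq2 called included Slc2a4 (GLUT4) for EOD and Pygb, the brain glycogen phosphorylase, for IF16R. Their edgeR log2 fold changes were 0.55 ± 0.15 (adjusted p = 0.210 by edgeR and 0.0433 by DESeq2) for Slc2a4 and 0.14 ± 0.04 (adjusted p = 0.230 by edgeR and 0.0444 by DESeq2) for Pygb. The hypoxia-inducible factor targets had 3 of 16 genes at an unadjusted p under 0.05 for IF16 and 4 for EOD, all higher, as were 4.35% and 7.02% of all genes, with median log2 fold changes of 0.05 and 0.08 beside -0.01 and -0.02 over all genes. Mxi1, a MAX-binding repressor, had the smallest p of them, with 0.27 ± 0.08 for IF16 (edgeR adjusted p = 0.288) and 0.23 ± 0.08 for EOD (0.295). After refeeding they had 3 lower and 0 higher for IF16R (4.83% and 4.76% of all genes) and 1 lower and 2 higher for EODR (3.99% and 4.51%). Of 19 glycogen genes 4 were higher and 0 lower at that p for IF16R, and 5 were higher and 1 lower for EODR, beside the same shares of all genes. Citric acid cycle genes had at most 1 at an unadjusted p under 0.05 against the controls in each direction, for IF16, EOD, IF16R and EODR alike.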

How the data were processed

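RNA-seq of mouse cerebellum was used from 30 libraries, and 12 ChIP and input samples of the series were not analysed here. The authors deposited raw read counts per gene and FPKM values in 1 table for the regimen groups and 1 for the refed groups. The submitters' processing notes name STAR 2.5, HTSeq 0.6.1, DESeq2 and the build mm10. Strand, annotation and RNA selection are not given in the sources used here. Recomputing the deposited FPKM from the counts, the gene lengths and the totals gave the same values.

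Counts were fitted per table with edgeR 4.0.16 (R 4.3.3; TMM scaling, filterByExpr, quasi-likelihood F-test, Benjamini-Hochberg over all tested genes, threshold 0.05). A joint fit of 30 libraries gave the interactions and ALR against AL. CPM values are TMM-scaled over 30 libraries. Ratios were tested with exact permutation tests (scipy 1.17.1). DESeq2 1.42.0, other scalings, no filter, the length gradient as a covariate, a replicate block and leaving out each library were alternatives. The edgeR steps were tested on simulated data.

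The genes and the surrounding lists were chosen with earlier results of these data known. Some genes of the surrounding lists are counted but not reported singly here. Genes given by library, in the groups they were named for, were those called, the 3 of smallest p in each comparison, and Slc2a1, Slc2a3, Hk1, Pfkm, Pkm, Ldha, Ldhb, Pdha1 and Mpc1. Pairs of libraries within a group differed by more than counting noise (chi-square per degree of freedom 4.24 to 136).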

Additional observations from a re-analysis of the deposited data

Results flagged for a closer look

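The genes given in every library were screened for a library far from the other 4 of its group (Dixon's test at 95%, critical ratio 0.71). Of 126 groups of 5 libraries 9 held such a library, and chance flags about 1 in 20. IF16R replicate 1 was the lowest of its group for 3 enzymes. Its Tpi1 was 569 CPM against 636 to 660.3 in the other libraries, its Gapdh 1798 against 2011 to 2051, and its Pkm 1756 against 1921 to 1968. EODR replicate 1 had the lowest Pgk1, 275 CPM against 302 to 309. IF16 replicate 1, a library of low length gradient, had the highest Ldha, 237 CPM against 198 to 207, and the highest Mpc2, 114 against 84.7 to 91.2. In ALR, Pfkfb3 was 42.7 CPM in replicate 5 against 38.1 to 39.2, and Pdk1 was 29.97 in replicate 1 against 24.6 to 25.8. Mpc1 in AL replicate 4 was 6.55 CPM against 8.02 to 8.54. Without that library the log2 fold change of Mpc1 for IF16 against AL was 0.37.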

How the results depend on the processing

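In the 6 comparisons within a table and both interactions, 0 of the 34 genes were called under every alternative run, except that DESeq2 called 1 (Mpc1) for IF16 against AL. Leaving out each library in turn gave 0 throughout. For ALR against AL, in place of 11, the count was 0 with the length gradient as a covariate and 0 without the 3 libraries of lowest length gradient. It ranged from 2 to 19 when each library was left out. Of the 35 fold changes of genes named for a comparison, 2 changed sign under any alternative, both with the length gradient as a covariate; over all 34 genes more signs changed, as given with the fasting comparisons. Pfkfb3 for EODR against IF16R was then 0.0049 (log2), and Tpi1 for ALR against AL 0.0161. The cause was not tested. Of the other refits of those 35 fold changes 955 kept direction and side of the threshold, 76 lost the call, all in ALR against AL, and 1 gained it. The replicate block gave 0 called genes in the 8 comparisons and 12 for ALR against AL. The deviations of same-numbered libraries from their group means correlated at -0.53 to 0.32 in the regimen groups. In the refed groups all 5 pairs were positive for IF16R against ALR (0.09 to 0.43, 3 over 0.1) and EODR against ALR (0.02 to 0.20, 2 over 0.1). In no comparison were all 5 pairs over 0.1, and at most 3 of 5 libraries correlated best with their own number. The main fits took the numbers as names, and whether same-numbered refed libraries share an origin was not tested. With the replicate block Pdk4, not one of the 34, had an edgeR adjusted p of 0.0819 for IF16R and 0.117 for EODR against ALR. Without the block these were 0.383 and 0.458. Mpc1 had the lowest CPM of the 34 genes, and 5 libraries a group limit the rest.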

Other observations

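Slc2a1 was the most variable of the 34 genes in 4 of the 6 groups, and its highest library was the one numbered 5 in all 6 groups. It was the one gene of the 34 with that pattern, which 11 of 16877 genes tested (0.0652%) showed. The labels do not say that a number marks a shared day or batch, and the pattern was noticed in these data. Other near copies of the genes had few reads. Pgam1-ps2 had 150 to 275 counts per library and Eno1b 61 to 134, while the antisense gene Hk1os had 4 to 24. Whether counting used strand is not given in the sources used here, so reads of Hk1 and Hk1os may not be told apart.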
